A study of Homo sapiens with 3 samples.

Results

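Semaphorins, plexins and neuropilins were examined at the RNA level in H660 cells exposed to an HSP70 inhibitor. The genes were taken by symbol from the gene-level FPKM table. A row was kept when its name was SEMA followed by a digit and a letter, PLXNA, PLXNB, PLXNC or PLXND followed by a digit, or NRP1 or NRP2, with nothing more. This gave 31 of 58735 genes, of which 20 were semaphorins, here called ligands, and 11 were plexins and neuropilins, here called receptors. H660 is an established human line of neuroendocrine prostate cancer, used in its parental form. The 3 libraries came from cells that received DMSO, the vehicle, or the allosteric HSP70 inhibitor JG231 at 2.5 μM or 5 μM, for 24 h. Each condition was 1 library, so both doses of JG231 share a single vehicle library as their reference. No SD or standard error between replicates and no p-value was therefore computed, and each difference is between libraries.

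Semaphorins are secreted or membrane-bound proteins that share the sema domain and steer growing axons, migrating cells and vessels. Plexins are their main receptors and act through a cytoplasmic GTPase-activating domain. Most secreted class 3 semaphorins first bind a neuropilin, which pairs with a class A plexin, whereas membrane-bound class 4 semaphorins bind class B plexins directly and class 6 semaphorins bind class A plexins. In carcinoma cells the same proteins affect motility, and neuropilins also bind vascular endothelial growth factors.

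The promoter windows of 4 members are shown as examples of genes that were higher and lower with JG231. SEMA6D was the only semaphorin or receptor with a mean of at least 1 FPKM that was higher in both JG231 libraries, SEMA4D shares with it an E-box near the start site, and SEMA3F and PLXND1 were a ligand and a receptor with much lower RNA in both JG231 libraries. The sequences are from RefSeq on GRCh38.p14, run 5′ to 3′ on the strand of the gene, and cover 250 bases before to 50 bases after an annotated start. Capitals mark the E-box CACGTG, a palindrome bound by Myc-family and related factors, and a sequence without capitals holds none. The windows are chr15:47183839-47184138 on the plus strand for SEMA6D, chr9:89495607-89495906 on the minus strand for SEMA4D, chr3:50154808-50155107 on the plus strand for SEMA3F and chr3:129606627-129606926 on the minus strand for PLXND1.
SEMA6D: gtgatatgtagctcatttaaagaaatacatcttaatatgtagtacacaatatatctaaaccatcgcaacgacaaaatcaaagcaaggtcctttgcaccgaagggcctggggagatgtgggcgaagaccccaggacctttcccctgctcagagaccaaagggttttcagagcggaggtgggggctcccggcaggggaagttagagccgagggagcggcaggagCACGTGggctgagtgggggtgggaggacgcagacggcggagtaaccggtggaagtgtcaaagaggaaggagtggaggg
SEMA4D: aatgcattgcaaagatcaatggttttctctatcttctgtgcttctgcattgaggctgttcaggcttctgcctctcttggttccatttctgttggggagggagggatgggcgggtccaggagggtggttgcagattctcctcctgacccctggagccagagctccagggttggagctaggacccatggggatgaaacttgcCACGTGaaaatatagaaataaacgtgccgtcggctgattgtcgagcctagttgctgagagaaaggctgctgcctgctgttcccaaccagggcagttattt
SEMA3F: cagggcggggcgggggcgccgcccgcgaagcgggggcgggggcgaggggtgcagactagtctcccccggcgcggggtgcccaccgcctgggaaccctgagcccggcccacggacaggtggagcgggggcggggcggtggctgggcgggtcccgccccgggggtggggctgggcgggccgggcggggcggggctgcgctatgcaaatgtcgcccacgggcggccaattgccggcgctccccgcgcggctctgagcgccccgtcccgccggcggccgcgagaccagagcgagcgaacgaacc
PLXND1: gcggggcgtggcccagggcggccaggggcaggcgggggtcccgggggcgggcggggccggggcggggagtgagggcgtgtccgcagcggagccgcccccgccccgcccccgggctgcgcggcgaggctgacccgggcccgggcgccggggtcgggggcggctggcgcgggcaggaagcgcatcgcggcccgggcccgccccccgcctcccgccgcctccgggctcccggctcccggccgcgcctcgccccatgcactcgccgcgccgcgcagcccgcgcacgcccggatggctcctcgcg

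The E-box began 28 bases upstream of the start in SEMA6D and 50 bases upstream in SEMA4D, which moved in opposite directions. Of the 31 genes, 27 had at least 1 RefSeq window, 48 windows in all, and NRP1, SEMA3A, SEMA6A and SEMA6B had none. CACGTG was present in 3 of the 48 windows, those of SEMA3E, SEMA4D and SEMA6D, which is 6.25% against 7.26% of 35116 windows of all genes. SEMA6D has 3 windows and only the one printed holds the motif. TGATGNAA, searched on both strands as the core of the element bound by ATF4, was in 2 of the 48 windows, those of SEMA3C and SEMA4A, which is 4.17% against 3.62% of all windows. The printed SEMA3F and PLXND1 windows held neither motif. These matches describe the letters in the windows only.

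Depth was recovered from the steps in FPKM multiplied by exon length and came to 16.1 M fragments for DMSO, 20.4 M at 2.5 μM and 24.1 M at 5 μM. Mitochondrial genes held 39.8%, 24.1% and 28.8% of the summed FPKM in the same order. Genes above 0 numbered 21862, 19352 and 17293 and genes with 1 to 10 fragments 4103, 2778 and 815, both fewest in the deepest library. All 6 neuroendocrine and 4 epithelial markers reached 1 FPKM in each library, whereas 0 of 5 luminal prostate markers did, although the labels call the cells prostatic adenocarcinoma. The neuroendocrine markers summed to 428, 176 and 151 FPKM in DMSO, 2.5 μM and 5 μM. The epithelial markers summed to 716, 1000.2 and 1165 FPKM, but they did not move together, since KRT8 and KRT18 were higher at both doses while EPCAM had 302, 262 and 261 FPKM and CDH1 20.5, 25.2 and 20.2. In bulk RNA, fewer cells of a type and less RNA per cell cannot be told apart, and the part of these shifts in the values below was not tested.

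Semaphorin and receptor RNAs were mostly lower in the JG231 libraries. Of the 31 genes, 19 had a mean of at least 1 FPKM over the 3 libraries, 11 ligands and 8 receptors. A further 9 were detected below that mean, 7 ligands and 2 receptors, and SEMA3G, SEMA5A and PLXNA4 were listed at 0 in every library. The number above 0 was 28 in DMSO, 26 at 2.5 μM and 25 at 5 μM, and the number at 1 FPKM or more was 21, 16 and 17. Changes are log2 of FPKM plus 0.1 against DMSO plus 0.1, and a change over 0.25 in size, the limit in the study's methods, was counted. Where 3 values stand in a row they are for DMSO, 2.5 μM and 5 μM, and a pair of changes is for 2.5 μM and 5 μM.

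At 2.5 μM, 15 of the 19 genes were lower, 9 of 11 ligands and 6 of 8 receptors, beside 38.3% of all 13785 genes with that mean. SEMA6D alone was higher, beside 38.4% of all genes. At 5 μM, 17 of 19 were lower, 9 of 11 ligands and 8 of 8 receptors, beside 40.2% of all genes and 59.3% of protein-coding genes in the receptors' range of transcript length. With the trend with length removed 6 of 8 receptors were lower, beside 37.1% of protein-coding genes treated alike. SEMA6D alone was again higher, beside 38.6%. With a limit of 1, a 2-fold change, 7 were lower at 2.5 μM beside 15.2% of all genes and 1 was higher beside 12.2%. At 5 μM, 8 were lower beside 17.4% and 0 were higher beside 14.2%. The filter acts on the mean, so SEMA5B, with a mean of 1.06 FPKM, and SEMA6C passed through DMSO while below 1 FPKM in both JG231 libraries. SEMA6B, with a mean of 0.759 FPKM, and PLXNB3, with 0.718 FPKM, were just below it.

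**Figure D1:**
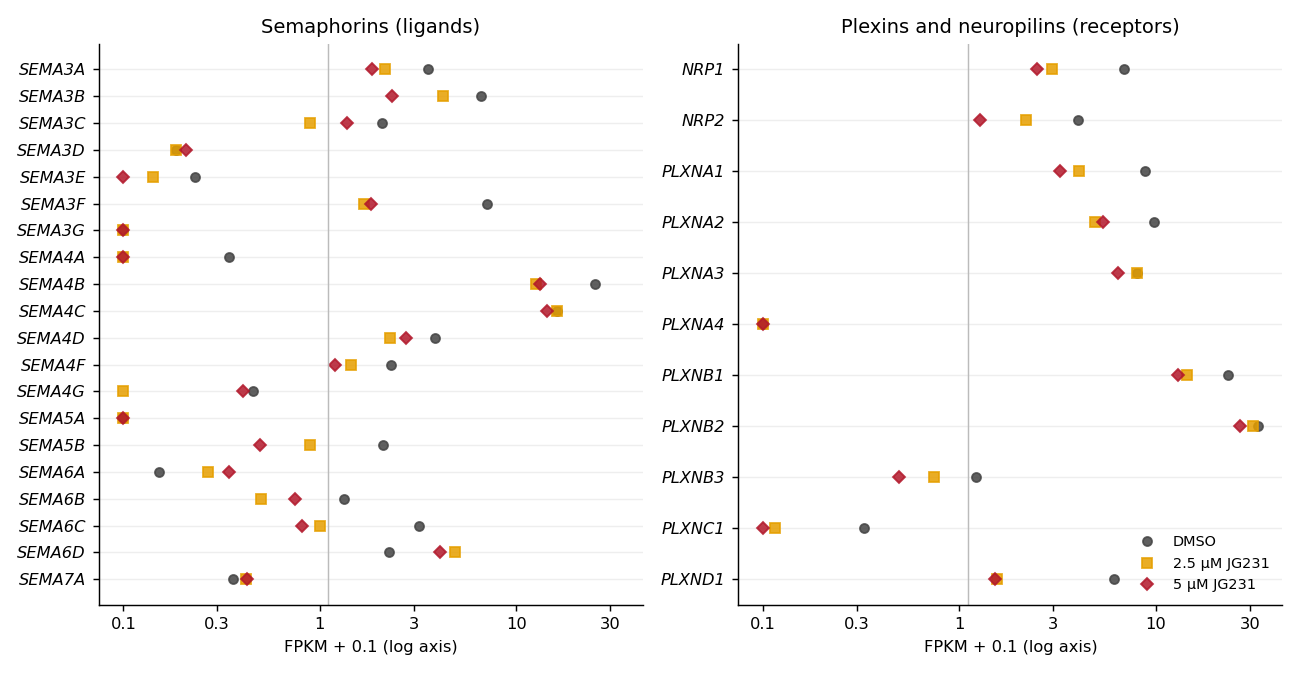
FPKM plus 0.1 of the 20 semaphorins (left) and 11 receptors (right) on a log axis, with 1 point per library for DMSO, 2.5 μM and 5 μM JG231, and a grey line at 1 FPKM. Most DMSO points lie to the right of both JG231 points, those of SEMA3D, SEMA6A, SEMA6D and SEMA7A lie to the left, and the points of SEMA4C, PLXNA3 and PLXNB2 nearly coincide.

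With 1 library per condition, the scatter between the JG231 libraries stood in for replicate error. For each gene the spread was the robust SD of the log2 difference between 5 μM and 2.5 μM over the 500 genes nearest in mean FPKM, which contains any dose effect. The change was beyond this spread at both doses for 13 of the 19 genes, 7 ligands and 6 receptors, beside 50.5% of all 13785 genes. It was beyond it at 1 dose for SEMA3C, SEMA4D, SEMA4F and PLXNB2, and within it at both for SEMA4C and PLXNA3. These calls keep the trend with transcript length, and the 50.5% is over genes of all lengths. With the trend removed and the same spreads, SEMA3A had -0.48 and -0.50 against 0.66. PLXNA2 had -0.26 at 5 μM against 0.36, so these values lay within the spread. In the other direction, PLXNA3 at 2.5 μM had 0.33 and narrowly passed its spread of 0.33. Counting intervals of 95% were computed from the fragments of each gene and cover counting error only, since several fragments can be PCR copies of the same RNA.

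The secreted class 3 semaphorins, the repulsive and attractive cues read through neuropilins, were lower wherever their mean reached 1 FPKM, which 4 of 7 did, beside 38.3% and 40.2% of all genes. SEMA3F, a ligand of neuropilin-2 with growth-inhibiting activity in tumour models, had 7.01 FPKM with vehicle, 1.58 at the lower dose and 1.71 at the higher dose. Its RNA was lower by similar amounts in both JG231 libraries, with 544, 155 and 199 fragments behind the values. The log2 changes were -2.08 and -1.97, with counting intervals of -2.42 to -1.89 and -2.27 to -1.79, against a spread of 0.47 for genes of its level. On the GRCh38 annotation SEMA3F (ENSG00000001617) lies at chr3:50155045-50189075 on the plus strand.

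SEMA3B, another class 3 semaphorin with tumour-suppressing activity and a neighbour of SEMA3F on the same arm, had 6.52, 4.13 and 2.23 FPKM in DMSO, 2.5 μM and 5 μM. It was lowest at the higher dose, where the log2 change was -1.50 against -0.65 at the lower dose, and the 2 JG231 libraries differed by -0.86. Its spread was 0.49. SEMA3A, the collapsin of growth cones, had 3.46, 2.05 and 1.74 FPKM. Both JG231 libraries were below DMSO and near each other, with changes of -0.72 and -0.95 against a spread of 0.66. SEMA3C, a class 3 semaphorin with migration-promoting activity in carcinoma, had 1.96, 0.791 and 1.27 FPKM. The lower dose held the least SEMA3C, and of its changes of -1.21 and -0.59 only the first passed the spread of 0.95.

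The membrane-bound class 4 semaphorins held most of the ligand RNA. SEMA4B had 24.99, 12.5 and 13.1 FPKM in DMSO, 2.5 μM and 5 μM. Both JG231 libraries held about the same lower amount, a change of -0.99 and -0.92 against a spread of 0.26. SEMA4C, a plexin-B2 ligand, had 16.0 FPKM with vehicle, 16.0 at the lower dose and 14.3 at the higher dose. The 3 libraries were close, with changes of 0.00 and -0.16 and counting intervals of -0.10 to 0.09 and -0.26 to -0.07, and the spread was 0.27. After rescaling without mitochondrial and small RNA genes, which moves the median of all genes to -0.28 and -0.38, the SEMA4C changes were -0.29 and -0.54.

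SEMA4D, the plexin-B1 ligand first known from lymphocytes, had 3.77, 2.17 and 2.65 FPKM. It was lower in both JG231 libraries and least at the lower dose, with changes of -0.77 and -0.49 against a spread of 0.55. SEMA4F, which is expressed in neurons and glia, had 2.21, 1.33 and 1.09 FPKM. Its changes of -0.69 and -0.96 rest on 221, 169 and 163 fragments, and only the second passed its spread of 0.84.

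The remaining ligands with a mean of at least 1 FPKM went in opposite directions. SEMA5B, a transmembrane semaphorin with thrombospondin repeats, had 1.99, 0.795 and 0.395 FPKM on 273, 138 and 81 fragments. DMSO was highest and 5 μM lowest, with changes of -1.22 and -2.08 against a spread of 1.13. SEMA6C, a transmembrane class 6 semaphorin, had 3.09, 0.904 and 0.715 FPKM. Both JG231 libraries were far below DMSO, with changes of -1.67 and -1.97 against a spread of 0.84.

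SEMA6D, the class 6 ligand of plexin-A1, had 2.14 FPKM with vehicle, 4.76 at the lower dose and 3.96 at the higher dose. Both JG231 libraries were above DMSO, with 293, 826 and 813 fragments in the same order. The log2 changes were 1.12 and 0.86, with counting intervals of 0.96 to 1.35 and 0.70 to 1.09, against a spread of 0.48. They were 0.83 and 0.49 after rescaling without mitochondrial and small RNA genes, and 1.27 and 1.16 after removal of the trend with transcript length. SEMA6D (ENSG00000137872) lies at chr15:47184101-47774228 on the plus strand, so the printed window ends inside the annotated gene.

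Among the receptors, both neuropilins were lower. NRP1, the co-receptor of SEMA3A and of VEGFA, had 6.77 FPKM with vehicle, 2.85 at the lower dose and 2.37 at the higher dose. NRP2, the co-receptor of SEMA3F and SEMA3B, had 3.91, 2.09 and 1.18 FPKM. DMSO was the highest library for both. The log2 changes of NRP1 were -1.22 and -1.47 against a spread of 0.53, and those of NRP2 were -0.87 and -1.65 against 0.65. Between the JG231 libraries NRP2 differed by -0.78 and NRP1 by -0.26.

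The class A plexins, which carry the signal of neuropilin-bound and class 6 semaphorins, split. PLXNA1 had 8.65, 3.96 and 3.16 FPKM in DMSO, 2.5 μM and 5 μM, and PLXNA2 had 9.64, 4.78 and 5.30 FPKM. Both were lower in each JG231 library, with changes of -1.11 and -1.43 for PLXNA1 against a spread of 0.44 and of -0.998 and -0.85 for PLXNA2 against 0.36. After removal of the length trend they were -0.83 and -0.92 for PLXNA1. For PLXNA2 they were -0.66 and -0.26, the second within its spread. PLXNA3 had 7.88, 7.93 and 6.28 FPKM, so DMSO and 2.5 μM coincided and 5 μM was lower. Its changes of 0.01 and -0.32 did not pass the spread of 0.33, and their sign depends on the treatment of scale and length. They were -0.28 and -0.70 after rescaling without mitochondrial and small RNA genes and 0.33 and 0.25 after removal of the length trend.

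The class B plexins, receptors of class 4 semaphorins, include the 2 most abundant receptors of each library, PLXNB2 and PLXNB1. PLXNB2 had 32.8 FPKM with vehicle, 30.9 at the lower dose and 26.7 at the higher dose, a small decline with changes of -0.09 and -0.30, of which only the second passed the spread of 0.26. After removal of the length trend these were 0.10 and 0.05. PLXNB1 had 23.1, 14.2 and 12.8 FPKM. Both JG231 libraries were lower, with changes of -0.69 and -0.84 against a spread of 0.26.

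PLXND1, the receptor of SEMA3E best known from vessels, had 6.02, 1.45 and 1.42 FPKM. The JG231 libraries were alike and far below DMSO, with changes of -1.98 and -2.01, counting intervals of -2.25 to -1.86 and -2.27 to -1.90, and a spread of 0.57. PLXND1 (ENSG00000004399) lies at chr3:129555214-129606676 on the minus strand. Endothelial cells also express PLXND1 and the neuropilins. Of the 2 endothelial markers PECAM1 was listed at 0 in every library, and the summed level, that of CDH5, was 4.92, 0.476 and 0.581 FPKM. Its part in the PLXND1 and neuropilin values was not tested.

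**Figure D2:**
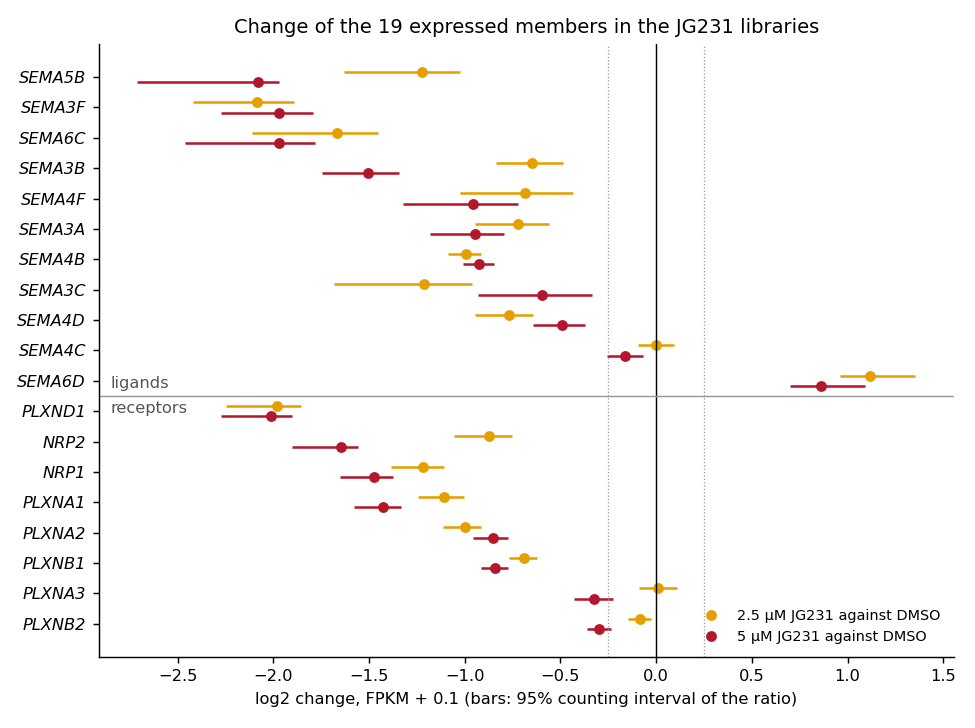
Log2 change in FPKM plus 0.1 against DMSO for the 19 genes with a mean of at least 1 FPKM, at 2.5 μM (orange) and 5 μM (red), with ligands above the line, receptors below it, dotted lines at 0.25 in either direction and bars for the 95% counting interval. SEMA6D is the only gene to the right of the dotted lines, SEMA4C lies between them at both doses, and SEMA3F, SEMA6C and PLXND1 lie at or below -1.67 at both doses.

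Genes below the mean of 1 FPKM rested on few fragments. SEMA6B went from 1.23 FPKM in DMSO to 0.401 and 0.650, and PLXNB3 from 1.12 to 0.644 and 0.391, so both were below DMSO at each dose. PLXNB3 shares 20.4% of its exon length with SRPK3 on the same strand, and the values of both genes are uncertain. SEMA7A, a lipid-anchored semaphorin, stayed between 0.262 and 0.328 FPKM and SEMA3D between 0.0848 and 0.108 FPKM, with counting intervals of the change that include 0.

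PLXNC1, the receptor of SEMA7A, had 36.5 fragments in DMSO, 3.0 at 2.5 μM and 0 at 5 μM, which is 0.226, 0.0149 and 0 FPKM. At 2.5 μM it was 15.2-fold lower, with a counting interval on the log2 scale of -6.27 to -2.26, and at 5 μM it was at least 18.2-fold lower, taking 3 fragments as the upper limit for a library listed at 0. The counting interval, which also covers the error of the DMSO value, ended at -3.79 on the log2 scale. SEMA4A, detected in DMSO on 26.8 fragments and listed at 0 in both JG231 libraries, was at least 11.3-fold lower at 2.5 μM and at least 13.4-fold lower at 5 μM by the same limit, with intervals that ended at -3.11 and -3.35. SEMA3E, the PLXND1 ligand, had 18.1, 7.0 and 0 fragments and was at least 9.02-fold lower at 5 μM, with an interval that ended at -2.72. The 3 genes were thus seen best in the DMSO library, the shallowest of the 3. These folds hold only if a listed 0 means at most 3 fragments, which was not tested. The intervals end at smaller folds, since the limit leaves out the error of the DMSO value. Genes with 1 to 10 fragments were fewest at 5 μM, and SEMA4G was listed at 0 at 2.5 μM between 30.3 and 39.3 fragments.

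SEMA6A, like SEMA6D a transmembrane class 6 semaphorin, went the other way. It had 9.0 fragments in DMSO, 37.8 at 2.5 μM and 64.7 at 5 μM, or 0.0511, 0.170 and 0.247 FPKM, with counting intervals of the log2 ratio of 0.66 to 2.97 and 1.26 to 3.46. SEMA4G had 30.3 fragments in DMSO, 0 at 2.5 μM and 39.3 at 5 μM, so only the 2.5 μM library lacked it. It overlaps MRPL43 on the opposite strand over 22.9% of its exon length, and MRPL43 had 6.98, 16.4 and 18.6 FPKM. Whether counting used the strand is not given in the sources used here.

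Ligands and receptors were compared first by their changes. The median log2 change of the 11 ligands was -0.77 at 2.5 μM and -0.95 at 5 μM, and that of the 8 receptors was -0.94 and -1.14. The interquartile ranges overlapped, since the quartiles at 2.5 μM were -1.22 and -0.67 for ligands and -1.13 and -0.54 for receptors. All genes with that mean had medians of 0.00 and -0.01, and protein-coding genes 0.05 and 0.02. The range among receptors ran at 5 μM from -2.01 in PLXND1 to -0.30 in PLXNB2, and among ligands from -2.08 in SEMA5B to 0.86 in SEMA6D.

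Both sides were also lower in summed level. Over the 20 ligands the sum was 75.5, 48.0 and 44.8 FPKM, or 63.6% and 59.4% of DMSO. Over the 11 receptors it was 100.1, 68.9 and 59.6 FPKM, or 68.8% and 59.6% of DMSO. At 2.5 μM the median was thus lower for receptors and the sum lower for ligands. Receptor RNA per ligand RNA was 1.33, 1.43 and 1.33. Since the deposited FPKM is per length of all exons of a gene, the ratio was also taken per length of the canonical transcript, where it was 1.01, 1.05 and 0.96.

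Within each side the make-up shifted. SEMA4B was the first ligand in DMSO with 33.1% of ligand FPKM and SEMA4C second with 21.2%, and in the JG231 libraries SEMA4C held 33.3% and 31.9% and SEMA4B 26.1% and 29.3%. SEMA6D went from 2.83% to 9.91% and 8.85%, and SEMA3F from 9.28% to 3.28% and 3.83%. PLXNB2 held 32.8% of receptor FPKM in DMSO and 44.9% and 44.8% with JG231. The class 3 sum was 45.3% and 36.9% of DMSO, the neuropilin sum 46.3% and 33.3% and the class B plexin sum 80.3% and 70.0%. The order between genes depends on the length used. PLXNB2 was above SEMA4B in DMSO as deposited, with 32.8 against 24.99 FPKM, and below it per canonical transcript, with 37.2 against 46.3 FPKM.

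**Figure D3:**
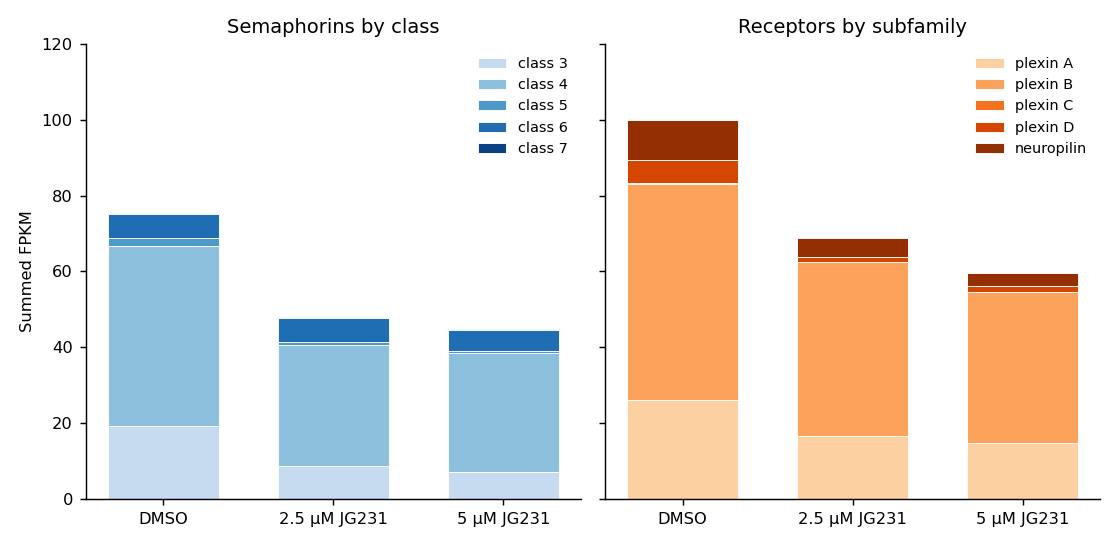
Summed FPKM of the 20 semaphorins by class (left) and of the 11 receptors by subfamily (right) in each library, on bars that start at 0. Both totals are lower with JG231, class 4 and plexin B make up most of each bar, and the class 6 segment stays near its DMSO height, at 6.50, 6.23 and 5.58 FPKM.

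Known ligand and receptor pairs were set side by side by FPKM, for the 11 of 13 listed pairs in which both genes had a mean of at least 1 FPKM. SEMA6D per PLXNA1 was 0.247 in DMSO, 1.20 at 2.5 μM and 1.26 at 5 μM, as the ligand was higher and the receptor lower. SEMA6C per PLXNA1 went the other way, with 0.357, 0.228 and 0.227. SEMA4C per PLXNB2 was 0.487, 0.517 and 0.535, and both genes changed little. SEMA3A per NRP1 was 0.511, 0.719 and 0.734 and per PLXNA1 0.400, 0.518 and 0.552, and SEMA3B per NRP2 was 1.67, 1.98 and 1.90. SEMA3F per NRP2 was 1.79, 0.755 and 1.45, lowest at 2.5 μM. SEMA3C per NRP1 was 0.290, 0.277 and 0.534 and per NRP2 0.503, 0.379 and 1.07, highest at 5 μM. SEMA4D per PLXNB1 stayed between 0.152 and 0.206, and per PLXNB2 it was 0.115, 0.0702 and 0.0992. The level of a ratio depends on the length used. Per canonical transcript SEMA6D per PLXNA1 was 0.295, 1.43 and 1.501, SEMA3A per NRP1 was 0.285, 0.402 and 0.410, and SEMA4C per PLXNB2 was 0.737, 0.781 and 0.809. On that scale SEMA3F per NRP2 was 1.15, 0.483 and 0.930, and SEMA4D per PLXNB1 was 0.373, 0.348 and 0.471. The order of the libraries within a pair is the same on both scales. These are ratios of RNA levels in 1 library each, and no protein was measured here.

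Transcript length moved with the change. Canonical transcripts had a median length of 4562 bp in the 11 ligands and 7046 bp in the 8 receptors, against 3298 bp over 11200 protein-coding genes with a mean of at least 1 FPKM. Across these genes the median change at 5 μM went from 0.66 in the shortest of 20 bins, of median length 733 bp, to -0.61 in the longest, of median length 10908 bp. Protein-coding genes within the length range of the ligands had medians of -0.08 at 2.5 μM and -0.19 at 5 μM, and those within the range of the receptors -0.20 and -0.42. With the trend removed the ligand medians were -0.71 and -0.64 and the receptor medians -0.67 and -0.68. The receptors then lay close to the ligands, and PLXNA3 and PLXNB2 at 5 μM changed sign.

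**Figure D4:**
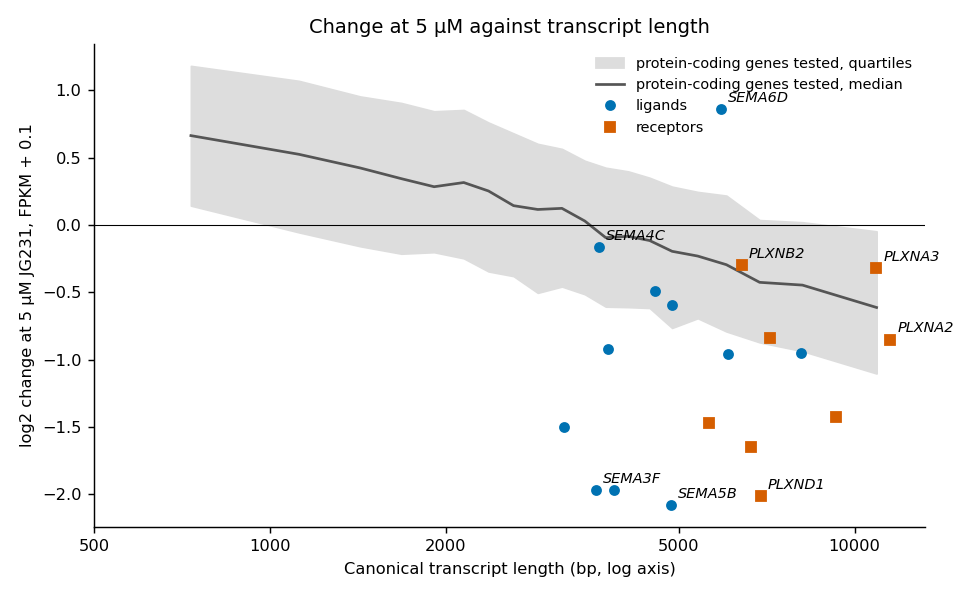
Log2 change at 5 μM against canonical transcript length in bp on a log axis, for the 11 ligands (circles) and 8 receptors (squares), with the median (line) and quartiles (grey) of protein-coding genes in 20 bins of length. SEMA3C, SEMA4C, SEMA4D, PLXNA3, PLXNB1 and PLXNB2 lie inside the grey band and SEMA6D lies above it. SEMA3F, SEMA5B, SEMA6C and PLXND1 lie near -2, below the band.

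The JG231 libraries were also compared with each other. From 2.5 μM to 5 μM the median difference was -0.22 in ligands and -0.23 in receptors, against -0.01 over all genes with that mean. Protein-coding genes within the length range of the ligands had a median of -0.10 and those within that of the receptors -0.17, and with the length trend removed the medians were -0.11 in ligands and -0.06 in receptors, with 7 of 11 and 5 of 8 lower beside 50.3% of protein-coding genes treated alike. Lower at 5 μM were 7 of 11 ligands and 7 of 8 receptors, beside 51.2% of all genes, and 63.1% and 71.6% of genes in the same length ranges. With 34.9% of all genes beyond their spread in this difference, 3 of the 19 were. SEMA3B, NRP2 and PLXNA3 were each lower at 5 μM, and PLXNA3 passed its spread by a narrow margin, with -0.33 against 0.33.

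Genes that work with semaphorins and plexins were taken from 3 lists of 47 genes in all, of which 34 had a mean of at least 1 FPKM. Of 13 co-receptors 6 had that mean, and all 6 were lower at both doses, beside 38.3% and 40.2% of all genes, with medians of -0.89 and -0.83. MST1R, the RON kinase that associates with class B plexins, had 13.5, 4.38 and 4.05 FPKM in DMSO, 2.5 μM and 5 μM. PTK7, a Wnt-pathway pseudokinase, had 27.6, 14.3 and 11.9 FPKM, and ITGB1, the integrin subunit through which SEMA7A signals, had 82.8, 43.2 and 43.7 FPKM.

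Of 28 cytoplasmic transducers 25 had that mean, and 9 were higher and 10 lower at each dose, with medians of -0.02 and -0.06. These counts are near the shares over all genes, 38.4% and 38.6% higher and 38.3% and 40.2% lower, and the genes below are given for their values only. RAP1A, a small GTPase on which plexins act, had 7.97, 17.9 and 16.98 FPKM and FYN, a kinase downstream of SEMA3A, had 7.25, 13.4 and 13.4 FPKM. RND1, a GTPase that binds plexins, went from 0.469 to 1.0 and 1.99 FPKM. RND1 reached the mean through the 5 μM library, where it was highest. On the lower side MICAL2, an actin oxidase, had 4.06, 1.38 and 1.44 FPKM, and the collapsin response mediators DPYSL5 and DPYSL2 had 13.5, 5.80 and 4.59 and 9.40, 4.12 and 4.29 FPKM.

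Of 6 genes for processing or for other neuropilin ligands 3 had that mean. VEGFA, which binds NRP1, had 16.7 FPKM with vehicle, 71.2 at the lower dose and 53.8 at the higher dose, with log2 changes of 2.08 and 1.68. The neuropilins were thus lower and this ligand higher in the same libraries. VEGFB had 29.6, 34.2 and 41.4 FPKM, and FURIN, the protease that cleaves class 3 semaphorins, had 17.6, 11.6 and 11.6 FPKM.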

How the data were processed

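RNA-seq values of H660 cells were analysed for 1 library each of DMSO, 2.5 μM and 5 μM JG231, grouped by the sample labels. The methods of the paper name a Top Hat-Cufflinks pipeline, HISAT for alignment and StringTie for quantification, whereas the submitters' processing notes name HISAT2, featureCounts and GRCh38 (hg38). Versions and the annotation release are not given in the sources used here. The authors deposited FPKM, fragments scaled by gene length and by mapped fragments, in 1 table. These are not counts, so no count model was applied.

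Coordinates and lengths came from GENCODE release 44, in which 58207 of the 58735 identifiers were found. One fragment was worth 62.2 (DMSO), 49.1 (2.5 μM) and 41.6 (5 μM) FPKM bp. FPKM times exon length was a whole number of fragments, within 0.05, in 88.2%, 85.7% and 84.1% of single-transcript genes with under 50 fragments. In genes with several transcripts and under 30 fragments it was whole for 50.7%, 52.3% and 51.4% with the length of all exons and for 13.0%, 12.9% and 11.4% with the canonical length. Fragments of genes with several transcripts are therefore approximate.

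Changes were log2 of FPKM with a pseudocount of 0.1, over 13785 genes with a mean of at least 1 FPKM. Genes named were all 31 members, with values per library for those at that mean, and from each partner list up to 3 higher and 3 lower genes at that mean with the same sign at both doses, ranked by the smaller change. The members and the lists were chosen with earlier results of these data known. The marker lists were neuroendocrine, epithelial, luminal prostate, fibroblast, endothelial and leukocyte. The summed fibroblast markers were 0.840, 0.811 and 1.32 FPKM, the luminal prostate markers 0.468, 0.331 and 0.116 FPKM, and the leukocyte markers were listed at 0. Intervals are exact 95% intervals of the ratio of 2 fragment counts. Alternatives were other pseudocounts (0.01 and 1), filters, thresholds and scalings, subtraction of a lowess fit on transcript length (fraction 0.3), and, added after seeing the data, levels per canonical transcript length. Scripts were tested on simulated data. They ran in Python 3.11.15 with pandas 2.3.3, numpy 2.4.6, statsmodels 0.14.6 and scipy 1.17.1, and figures were drawn with matplotlib 3.10.9.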

Additional observations from a re-analysis of the deposited data

How the results depend on the processing

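No paired analysis was possible because each condition had 1 library and no result comes from a test. The medians of ligands and of receptors were below 0 at both doses under each of the alternatives run, from -1.05 to -0.50 for ligands at 2.5 μM, -1.30 to -0.54 at 5 μM, -1.22 to -0.67 for receptors at 2.5 μM and -1.51 to -0.68 at 5 μM. The lowest of these came from rescaling to a common sum without mitochondrial and small RNA genes, which also put the ligand sums at 51.9% and 45.6% of DMSO and the receptor sums at 56.2% and 45.8%. Rescaling to a common sum of all genes moved the median of all genes to 0.05 and -0.14. Removal of the length trend gave receptor medians of -0.67 and -0.68, a ligand median of -0.64 at 5 μM and 1 receptor higher at 2.5 μM (PLXNA3), and turned the changes at 5 μM of PLXNA3 to 0.25 and of PLXNB2 to 0.049. Without a filter 2 ligands were higher at each dose and the ligand median was above the receptor median by 0.49 at 5 μM. With a mean of at least 5 FPKM, which leaves few genes, the ligand medians were -0.50 and -0.54 and the receptor median at 5 μM -0.84, with 1 ligand lower and 0 higher at each dose and 3 and 5 receptors lower. With a threshold of 1, 4 ligands were lower at each dose, 3 and 4 receptors were lower, and 0 ligands were higher at 5 μM. Log2 values were taken as moved at a difference of 0.25, sums at the same difference in ratio and counts at 1.5 times. By these limits 29 values for the sides as a whole moved and 127 did not. Of those for single genes 63 moved and 163 did not, besides the 2 above that turned sign from a change over 0.25. In 3 more, of SEMA4C, PLXNA3 and PLXNB2, the sign turned from a change of at most 0.087. Depth limits the genes below 1 FPKM, which rest on at most 126 fragments in a library, and the absence of replicates limits the rest.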

Other observations

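The table also holds antisense RNA genes named for members, looked at after their values were seen. SEMA3B-AS1, on the minus strand of chromosome 3 beside the start of SEMA3B, had 6.80 FPKM with vehicle, 3.19 at 2.5 μM and was listed at 0 at 5 μM, on 59.2, 35.2 and 0 fragments. Its exons share 7 bp with those of SEMA3B, which was itself lowest at 5 μM. SEMA3F-AS1 had 1.0, 9.0 and 25 fragments in the same order, while SEMA3F had 544, 155 and 199, and their exons share 110 bp. SEMA6A-AS1 had 18.0 fragments in DMSO and was listed at 0 in both JG231 libraries, while SEMA6A went from 9.0 to 37.8 and 64.7 fragments. SEMA5A-AS1 and SEMA6A-AS2 were listed at 0 in each library, as was SEMA5A. Whether counting used the strand is not given in the sources used here, so the values of each sense and antisense pair are uncertain.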
